A study of Mus musculus with 10 samples.

Results

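The major histocompatibility complex (MHC) genes of the mouse, together with 5 partners in antigen presentation, were examined in the testis of mice lacking the bile acid receptor FXRα, which is encoded by Nr1h4. Members were the protein-coding rows of the count table whose symbol begins with H2-, plus B2m, Tap1, Tap2, Tapbp and Ciita, and they numbered 40 of the 30719 genes in the table. They fell into 2 classical class I genes (H2-K1 and H2-D1), 23 non-classical class I genes of the Q, T and M series, 3 classical class II genes (H2-Aa, H2-Ab1 and H2-Eb1), 6 non-classical class II genes and the 5 partners. The last member, H2-Ke6, carries the name by position and encodes a hydroxysteroid dehydrogenase. A further 8 H2-named rows of pseudogene types lay outside the rule.

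RNA from testis was sequenced in 5 FXR-/- libraries (8, 9, 10, 11 and 12) and 5 WT libraries (3, 4, 5, 6 and 9), all from mice at postnatal day 10 and of mixed 129sv and C57Bl ancestry. The number after C57Bl in the strain label differs in every library and was not used. The labels do not say whether each library came from a separate animal, so p-values measure the spread between these libraries. Every comparison below asks how a member's RNA differed between FXR-/- and WT testis. The sources used here give neither the deleted part of Nr1h4 nor the MHC haplotype of the animals. Reads had been counted against mm10, the C57BL/6J assembly.

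Class I molecules consist of a heavy chain paired with β2-microglobulin (B2m). The transporter Tap1/Tap2 brings peptides into the endoplasmic reticulum, where tapasin (Tapbp) helps load them, and CD8 T cells read the loaded classical molecules at the cell surface. Class II molecules are α/β pairs made mainly by dendritic cells, macrophages and B cells under the transactivator Ciita. H2-DM assists their peptide loading. Meiotic and postmeiotic germ cells carry little classical class I, and the testis is known as a site where immune responses are restrained.

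Libraries held 33037427 to 39655170 counts in FXR-/- and 32330029 to 35006180 in WT. Nr1h4 had 8 to 13 counts in FXR-/- libraries and 13 to 26 in WT libraries (edgeR log2 fold change -0.84, SE 0.234, adjusted p = 0.0347), a call lost when any of 7 single libraries was left out. Summed germ cell markers stood at 1045 to 1336 CPM (the count scaled to a common library size by TMM) in FXR-/- and 778 to 1133 CPM in WT. The summed adipocyte markers ran from 196 to 1206 CPM in FXR-/- and from 47.5 to 187 CPM in WT (6 of 7 called higher, 0 lower), and the summed duct epithelium markers from 38.5 to 67.7 CPM in FXR-/- and from 16.9 to 27.0 CPM in WT (5 of 5 called higher). Of 5 Sertoli cell markers 3 were called lower, of 5 Leydig cell markers 1 was called lower, and of 5 endothelial markers 0 were called. Their part in the results below was not tested.

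The FXR-/- libraries did not behave as 1 group over the MHC genes. In library 8, 13 of 26 tested members (50.0%) lay outside the range of the WT libraries, against 54.7% of all 18559 tested genes. In library 9, 17 members (65.4%) did so, against 46.0% of all genes. In libraries 10, 11 and 12, the members outside numbered 19, 18 and 19 (73.1%, 69.2% and 73.1%), against 40.8%, 51.1% and 52.7% of all genes. The median distance of a tested member from its WT mean was 0.24, 0.32, 0.43, 0.56 and 0.54 on the log2 scale in libraries 8 to 12, against 0.18, 0.14, 0.12, 0.16 and 0.17 for all tested genes. In H2-D1, library 8 stood among the WT libraries, libraries 10, 11 and 12 stood far above them, and library 9 lay between. In H2-Q10, H2-Q1, H2-T22 and H2-Eb1 library 8 was likewise the FXR-/- library nearest to the WT values, with an order of the others that differed from gene to gene. Fits without library 8 are therefore given beside the results they change. That library was singled out after its values at these genes were seen, so adjusted p-values without it are descriptive and not support. Reads from an MHC allele that differs from the assembly may align less often or to another H2 gene, so allele and RNA level cannot be told apart in the values of H2 genes given here, and this was not tested.

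**Figure D1:**
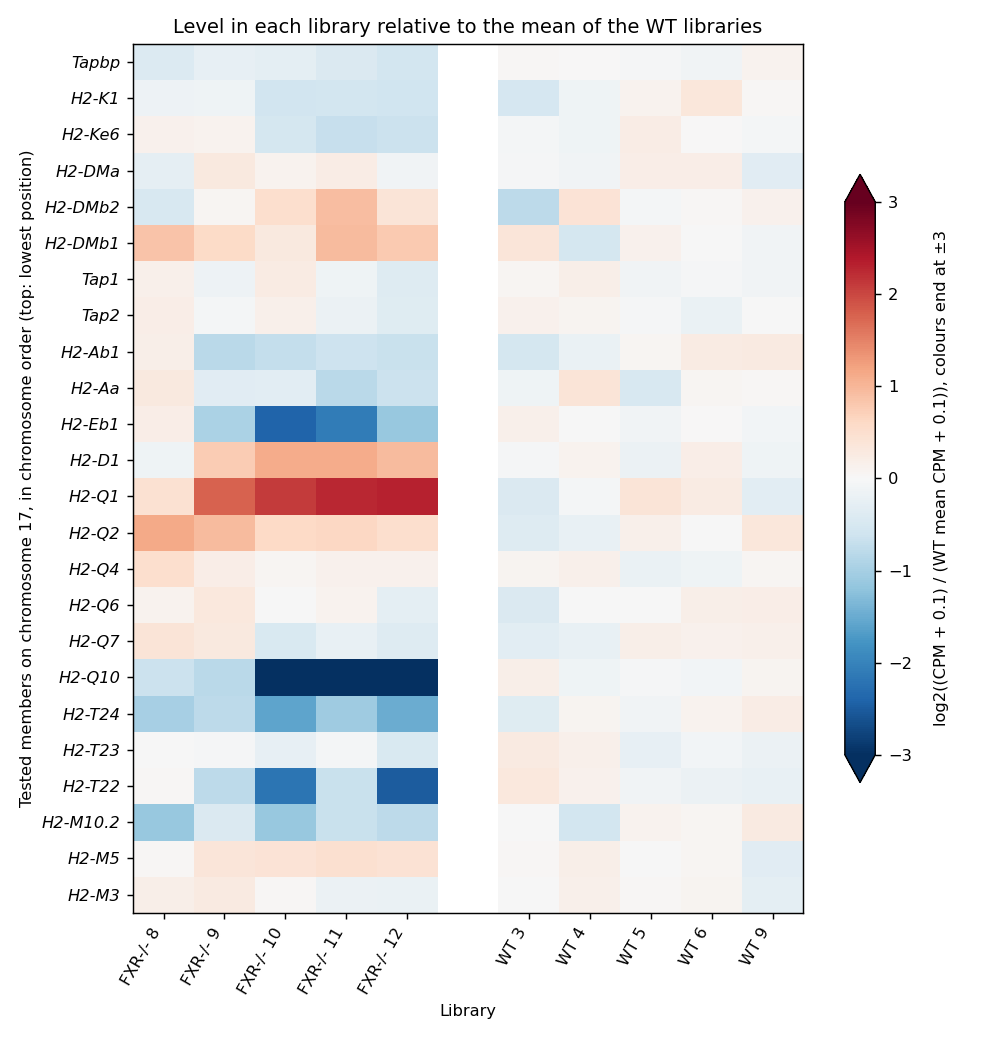
Level of each tested member on chromosome 17 in each library, as log2((CPM + 0.1) / (WT mean CPM + 0.1)), with genes in chromosome order from top to bottom, FXR-/- libraries on the left and WT libraries on the right, and colours that end at 3 in both directions. FXR-/- library 8 is pale at H2-Eb1, H2-D1 and H2-T22, where libraries 10, 11 and 12 are coloured, and H2-Q10 passes the end of the scale in libraries 10, 11 and 12.

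Of the 40 members, 26 passed the filter on low counts and were tested, and 7 of these were called at an edgeR adjusted p under 0.05. Across all tested genes 13.9% were called, with 6.17% higher and 7.71% lower in FXR-/-. The 4 members called higher were H2-D1, H2-Q1, H2-Q2 and H2-DMb1, and the 3 called lower were H2-T24, H2-M10.2 and Tapbp. The median log2 fold change of tested members was -0.04, against 0.01 over all tested genes, so the members showed no common direction. In 5 tested members the 5 FXR-/- values did not overlap the 5 WT values (H2-Q1, H2-Q2, H2-Q10, H2-T24 and Tapbp), where 11.6% of all tested genes showed no overlap. Without library 8, 12 of 27 tested members were called (5 higher and 7 lower), against 13.2% of all genes in the same fit. The calls then also took in H2-Q10, H2-T22, H2-Eb1 and H2-Ab1 as lower and H2-M5 and H2-Bl as higher, while H2-DMb1 was lost (adjusted p = 0.0515). Library 8 was singled out on values of these members, so the calls gained without it depend in part on that choice. Neither they nor the count of 12 are counted as support. H2-Bl, moreover, did not pass the filter in the fit of all libraries. It passed without library 8 through the FXR-/- libraries in which it was higher.

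**Figure D2:**
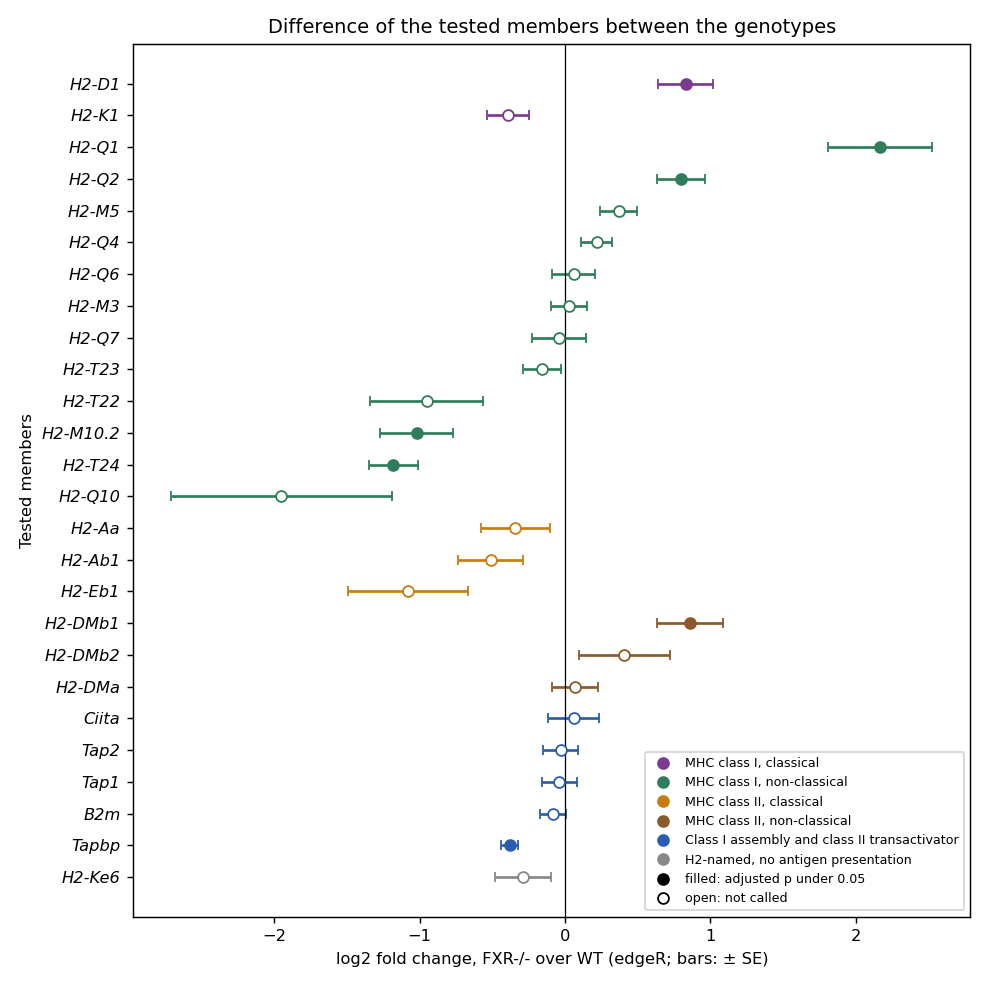
Log2 fold change, FXR-/- over WT, of the 26 tested members with its standard error from edgeR, coloured by class, with filled points for an adjusted p under 0.05. Both directions occur within class I, the 3 classical class II genes lie below 0, and the class I partners other than Tapbp lie near 0.

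Class I genes arose by duplication, and some remain much alike in their promoters. Sequences upstream of the RefSeq start are printed for 4 of the class I genes described below, to show their motifs and their likeness. The window of H2-Q1 is not printed. H2-K1 (chr17:34000348-34000597, minus strand), H2-D1 (chr17:35262844-35263093, plus strand), H2-Q10 (chr17:35469839-35470088, plus strand) and H2-Q2 (chr17:35342057-35342306, plus strand) are given for the 250 bases before the RefSeq start on GRCm38.p6, 5′ to 3′ on the gene's strand. The H2-D1 window lies wholly inside the span of H2-D1 in GENCODE M21 (chr17:35262730-35267499), whose start differs from that of RefSeq. The H2-Q2 window likewise runs past the GENCODE start of H2-Q2 (35342242). Capitals mark 4 motifs searched on both strands. They are the κB element of the class I enhancer (the run of 11 capitals in H2-K1 and H2-D1), the core of its interferon-response element (10 capitals), TGACG (the CRE-like X2 box) and ATTGG (the inverted CCAAT or Y box), and none overlaps another in these windows.
H2-K1: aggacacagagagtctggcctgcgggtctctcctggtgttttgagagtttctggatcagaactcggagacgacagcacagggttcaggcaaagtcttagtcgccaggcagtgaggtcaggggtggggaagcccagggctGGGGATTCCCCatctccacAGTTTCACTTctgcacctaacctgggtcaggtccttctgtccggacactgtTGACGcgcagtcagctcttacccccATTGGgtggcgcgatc
H2-D1: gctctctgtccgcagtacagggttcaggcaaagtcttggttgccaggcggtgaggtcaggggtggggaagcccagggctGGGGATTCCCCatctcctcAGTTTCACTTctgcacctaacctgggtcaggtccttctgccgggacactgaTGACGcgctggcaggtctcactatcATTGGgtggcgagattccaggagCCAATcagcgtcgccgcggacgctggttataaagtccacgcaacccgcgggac
H2-Q10: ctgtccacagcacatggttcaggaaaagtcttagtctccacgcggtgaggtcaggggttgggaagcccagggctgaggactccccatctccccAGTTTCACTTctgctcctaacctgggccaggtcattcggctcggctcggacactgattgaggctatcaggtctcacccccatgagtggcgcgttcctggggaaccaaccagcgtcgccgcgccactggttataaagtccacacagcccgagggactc
H2-Q2: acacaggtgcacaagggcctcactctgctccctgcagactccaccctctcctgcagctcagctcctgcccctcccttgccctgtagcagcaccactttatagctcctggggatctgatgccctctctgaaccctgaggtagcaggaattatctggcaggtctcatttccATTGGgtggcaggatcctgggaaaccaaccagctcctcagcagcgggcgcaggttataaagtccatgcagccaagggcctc

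In these windows H2-K1 and H2-D1 held all 4 motifs, H2-Q10 the interferon-response core alone, and H2-Q2 the Y box alone. The H2-D1 window was 89.5% identical to that of H2-K1 over 190 aligned bases, and the H2-Q10 window 85.9% identical to that of H2-D1 over 241. The H2-Q2 window was 59.7% identical to that of H2-K1, and the unrelated B2m window 63.5%. The H2-K1 window ends shortly after its Y box, while the H2-Q2 window runs on well past its own. The H2-Q2 window was not aligned with those of H2-D1 and H2-Q10. Its likeness to other class I promoters is therefore not measured by this value. RefSeq promoters were found for 34 members. The κB element occurred in 3 of these 34 and in 0.0222% of 27025 promoters, the interferon-response core in 8 and in 0.148%, TGACG in 14 and in 17.9%, and ATTGG in 30 and in 34.5%. A match is a description of the letters and not a binding site.

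The transcripts ranged from much alike to distinct. Of all 50-base words in GENCODE M21 transcripts of H2-T22, 53.5% also occur in another gene, as do 36.4% for H2-Q4, 35.0% for H2-Q6, 26.5% for H2-Q7, 19.1% for H2-Q10, 16.1% for H2-Q2 and 15.0% for H2-Q1. The share is 12.8% for H2-D1, 9.63% for H2-K1 and 3.17% for H2-T24, 0.926% for H2-T3, 0.886% for H2-M5 and 0.576% for H2-M3, and no word of H2-M11, B2m, H2-Ab1 or H2-Eb1 is shared. Outside class I, the share is 23.2% for Tapbp (20.3% with the gene model Gm19412) and 22.7% for H2-DMb1. How reads with several alignments were counted is not given in the sources used here, so values of members with shared words are uncertain.

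Of the 2 classical class I genes 1 was called, H2-D1 as higher. H2-D1 (chr17:35262730-35267499), the D heavy chain, had 24.9, 46.0, 59.1, 58.8 and 53.2 CPM in FXR-/- libraries 8 to 12, against 26.4, 29.2, 24.3, 31.4 and 25.0 CPM in WT libraries 3, 4, 5, 6 and 9. Library 8 lay within the WT range and the other FXR-/- libraries lay above it. The mean was 48.4 ± 14.2 CPM in FXR-/- and 27.3 ± 2.99 CPM in WT (SD, n = 5 each), 1.77-fold higher (log2 fold change 0.83, SE 0.191, edgeR adjusted p = 0.0154). The call was lost without libraries 9 and 10, which had the highest adipocyte values (log2 fold change 0.74, edgeR adjusted p = 0.0557). That fit kept FXR-/- libraries 8, 11 and 12, of which library 8 lay within the WT range. What part adipocyte content had in the H2-D1 values was not tested.

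H2-K1 (chr17:33996017-34000347), the K heavy chain, had 51.5, 52.1, 38.3, 39.3 and 37.8 CPM in FXR-/- libraries 8 to 12, against 40.5, 52.5, 61.8, 72.6 and 59.2 CPM in WT libraries. Libraries 10, 11 and 12 lay below every WT library and libraries 8 and 9 within the WT range. The mean was 43.8 ± 7.32 CPM in FXR-/- and 57.3 ± 11.9 CPM in WT (SD, n = 5 each), and the log2 fold change of -0.39 (SE 0.146) was not called by edgeR (adjusted p = 0.0965). It passed without WT library 3 (log2 fold change -0.49, adjusted p = 0.0248) and by DESeq2 (adjusted p = 0.0484). Summed over both genes, the classical heavy chains reached 76.4 to 98.0 CPM in FXR-/- libraries and 66.9 to 104 CPM in WT libraries, so the sums overlapped. Per kilobase of exon, H2-D1 averaged 18.8 CPM in FXR-/- and 10.6 CPM in WT, and H2-K1 14.9 CPM in FXR-/- and 19.5 CPM in WT. The order of these means differed between the genotypes, but not in every FXR-/- library. In CPM not divided by length, H2-D1 exceeded H2-K1 in libraries 10, 11 and 12 only. In libraries 8 and 9 H2-K1 was the higher, as in every WT library.

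**Figure D3:**
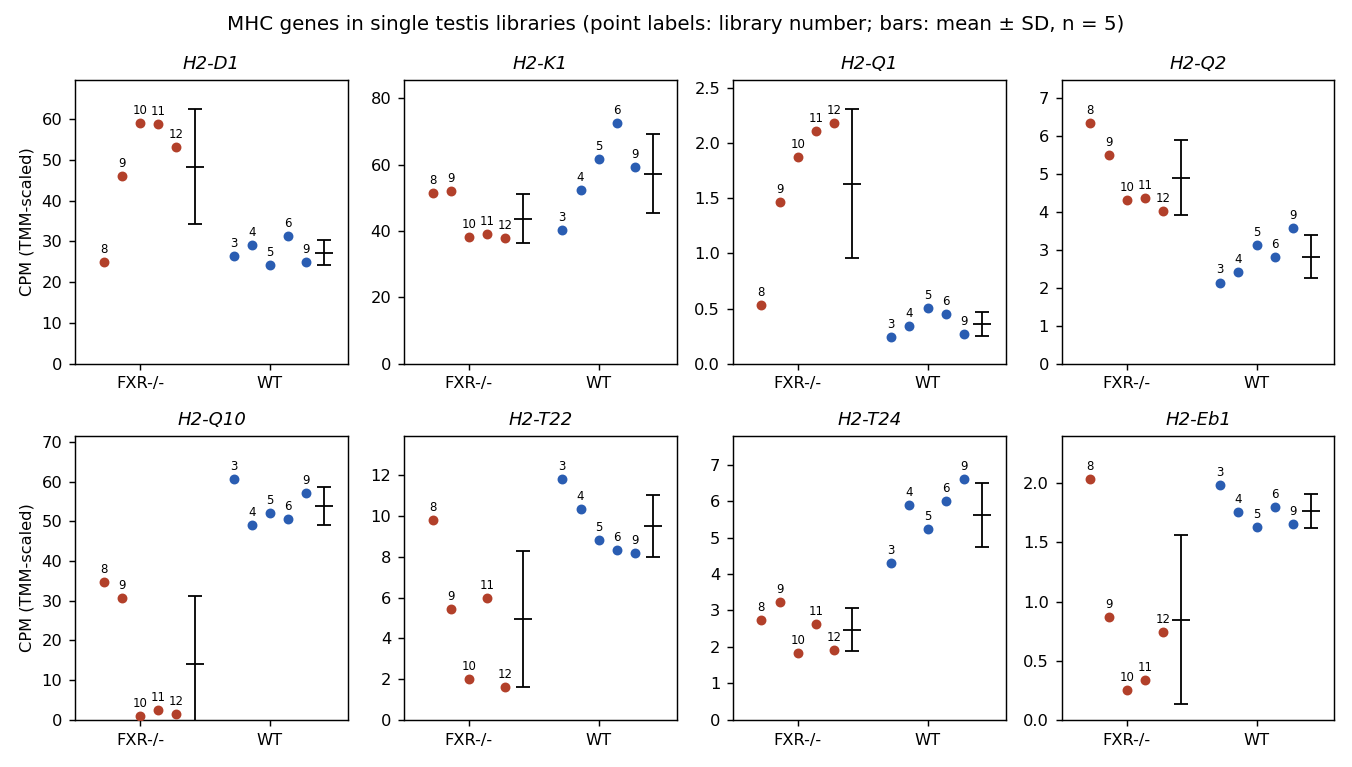
CPM of 8 MHC genes in each library, FXR-/- on the left and WT on the right of each panel, with points labelled by library number and bars for the mean ± SD (n = 5; the H2-Q10 bar is cut at 0). FXR-/- library 8 sits among the WT points in H2-D1 and H2-T22 and just above them in H2-Eb1. H2-Q1, H2-Q2, H2-Q10 and H2-T24 separate the genotypes in all libraries.

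Among the 23 non-classical class I genes, 12 were tested. Of these 2 were called higher, 2 lower and 8 were not called, and the median log2 fold change was -0.01. H2-Q10 (chr17:35470089-35474563), a secreted heavy chain known from liver, had the widest spread. Its CPM were 34.7, 30.8, 1.06, 2.42 and 1.59 in FXR-/- libraries 8 to 12, against 60.6, 49.1, 52.2, 50.6 and 57.1 in WT libraries. Every FXR-/- value lay below every WT value, and libraries 10, 11 and 12 held 42, 93 and 62 counts where libraries 8 and 9 held 1176 and 1132. Means were 14.1 ± 17.1 CPM in FXR-/- and 53.9 ± 4.80 CPM in WT (SD, n = 5 each). With this spread among FXR-/- libraries the log2 fold change of -1.95 (SE 0.759) was not called (edgeR adjusted p = 0.108), and without library 8 it was -2.60 (adjusted p = 0.0473). Per kilobase, H2-Q10 averaged 3.24 CPM in FXR-/- and 12.4 CPM in WT, where its mean lay between those of H2-K1 and H2-D1.

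H2-Q1 (chr17:35320405-35325099), a heavy chain gene of the Q series, had 0.530, 1.47, 1.87, 2.11 and 2.18 CPM in FXR-/- libraries 8 to 12, against 0.241, 0.345, 0.501, 0.449 and 0.271 CPM in WT libraries. Library 8 exceeded the highest WT library by a small margin and the other FXR-/- libraries by far more. The gene was 4.52-fold higher (log2 fold change 2.17, SE 0.359, edgeR adjusted p = 0.00322). H2-Q2 (chr17:35342242-35346762) had 6.34, 5.49, 4.30, 4.37 and 4.01 CPM in FXR-/- libraries 8 to 12, against 2.14, 2.42, 3.13, 2.81 and 3.58 CPM in WT libraries. Here library 8 was the highest of all and lay farthest from the WT libraries. It was 1.74-fold higher (log2 fold change 0.80, SE 0.167, adjusted p = 0.00987). The other tested Q genes, H2-Q4 and the Qa-2 genes H2-Q6 and H2-Q7, had log2 fold changes of 0.22, 0.06 and -0.04 and were not called (adjusted p = 0.188, 0.826 and 0.919).

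In the T series, H2-T24 (chr17:36005695-36020560) fell in all FXR-/- libraries, with 2.74, 3.24, 1.82, 2.63 and 1.93 CPM in libraries 8 to 12, against 4.30, 5.90, 5.23, 6.01 and 6.60 CPM in WT libraries. It was 2.27-fold lower (log2 fold change -1.18, SE 0.170, edgeR adjusted p = 0.00133), the smallest adjusted p among members, and library 8 took part in this difference. H2-T22 (chr17:36037128-36042747), a ligand of some γδ T cell receptors, had 9.78, 5.44, 1.999, 5.99 and 1.59 CPM in FXR-/- libraries 8 to 12, against 11.8, 10.3, 8.84, 8.35 and 8.19 CPM in WT libraries. Library 8 lay within the WT range and libraries 10 and 12 were the lowest. The log2 fold change of -0.95 (SE 0.389) was not called (adjusted p = 0.126), and it was -1.34 without library 8 (adjusted p = 0.0262).

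Its near-copy H2-T10, a polymorphic pseudogene row outside the rule and named after its values were seen, ran the other way at 0.589, 1.96, 3.87, 1.95 and 3.83 CPM in FXR-/- libraries 8 to 12, against 0.331, 0.633, 0.313, 0.598 and 0.271 CPM in WT libraries. H2-T10 was called higher (log2 fold change 2.50, SE 0.463, edgeR adjusted p = 0.00575), with means of 2.44 CPM in FXR-/- and 0.429 CPM in WT. H2-T22 averaged 4.96 CPM in FXR-/- and 9.50 CPM in WT. Libraries 10 and 12, lowest in H2-T22, were the highest in H2-T10, and 31.2% of the 50-base words of H2-T22 occur in H2-T10. A link between the values of H2-T22 and H2-T10 was not tested. H2-T23, which encodes the Qa-1 ligand of NK cell receptors, averaged 3.98 ± 0.512 CPM in FXR-/- and 4.43 ± 0.703 CPM in WT (SD, n = 5 each), with a log2 fold change of -0.16 and a 95% interval of -0.41 to 0.10.

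In the M series, H2-M3, which presents formylated peptides, averaged 4.77 ± 0.721 CPM in FXR-/- and 4.66 ± 0.522 CPM in WT (SD, n = 5 each), a log2 fold change of 0.03 with a 95% interval of -0.21 to 0.28. H2-M5 had 2.48, 3.10, 3.19, 3.38 and 3.29 CPM in FXR-/- libraries 8 to 12, against 2.47, 2.73, 2.38, 2.51 and 1.87 CPM in WT libraries. It was not called (log2 fold change 0.37, edgeR adjusted p = 0.0760) except without library 8 (0.44, adjusted p = 0.0368). H2-M10.2, of a family known from vomeronasal neurons, held 6 to 13 counts in FXR-/- libraries and 11 to 21 in WT libraries. Its CPM were 0.177, 0.353, 0.177, 0.286 and 0.257 in FXR-/- libraries 8 to 12, against 0.512, 0.317, 0.564, 0.538 and 0.633 in WT libraries, so the groups overlapped. It fell (log2 fold change -1.02, SE 0.252, adjusted p = 0.0217), a call lost without WT library 9 (log2 fold change -0.93, adjusted p = 0.0517).

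Of the 14 members below the filter, 7 had no more than 2 counts in any library. The 14 were the 9 other M genes, H2-T3, H2-Bl, H2-Eb2, H2-Oa and H2-Ob. The highest value among them was 19 counts, for H2-Bl in FXR-/- library 10, where its 5 FXR-/- libraries had 5, 13, 19, 11 and 14 counts and its WT libraries 7, 4, 4, 9 and 3. Summed over all 23 genes, non-classical class I reached 86.0, 77.9, 37.1, 44.8 and 36.2 CPM in FXR-/- libraries 8 to 12, against 105.7, 96.0, 96.0, 95.8 and 102 CPM in WT libraries. The sums did not overlap, and H2-Q10 was the largest contributor in every WT library. Without H2-Q10 the sums of the other 22 genes overlapped, at 34.7 to 51.4 CPM in FXR-/- libraries and 43.8 to 47.0 CPM in WT libraries.

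The 3 classical class II genes had log2 fold changes below 0 and none was called in the fit of all libraries. H2-Eb1 (chr17:34305867-34316674), the Eβ chain, had 2.03, 0.870, 0.253, 0.338 and 0.745 CPM in FXR-/- libraries 8 to 12, against 1.99, 1.76, 1.63, 1.79 and 1.66 CPM in WT libraries. Library 8 was the highest of all 10 libraries and the other FXR-/- libraries lay below every WT library. The log2 fold change was -1.08 (SE 0.414, edgeR adjusted p = 0.103), and -1.68 without library 8 (adjusted p = 0.00472). H2-Ab1 (chr17:34257689-34269419), the Aβ chain, had 2.50, 1.22, 1.32, 1.41 and 1.36 CPM in FXR-/- libraries 8 to 12, against 1.51, 1.93, 2.32, 2.66 and 2.68 CPM in WT libraries. Its log2 fold change was -0.51 (SE 0.224, adjusted p = 0.148), and -0.74 without library 8 (adjusted p = 0.0207). H2-Aa (chr17:34282744-34287823), the Aα chain, had 1.62, 1.01, 1.01, 0.703 and 0.796 CPM in FXR-/- libraries 8 to 12, against 1.17, 1.73, 0.909, 1.35 and 1.33 CPM in WT libraries. It averaged 1.03 ± 0.358 CPM in FXR-/- and 1.30 ± 0.297 CPM in WT (SD, n = 5 each) and was not called in either fit (log2 fold change -0.34, adjusted p = 0.356).

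These genes had 10 to 89 counts per library. The Eα chain partner of H2-Eb1 is annotated here as the pseudogene H2-Ea-ps, which had 1 count in FXR-/- library 12 and 0 in the other 9 libraries. In bulk tissue, fewer antigen-presenting cells and less class II RNA per cell cannot be told apart. The levels of such cells' markers are given with the class II sums.

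Summed classical class II stood at 6.16, 3.10, 2.58, 2.45 and 2.90 CPM in FXR-/- libraries 8 to 12, against 4.67, 5.41, 4.86, 5.80 and 5.66 CPM in WT libraries. Of 12 macrophage markers 0 were called (median log2 fold change -0.08), and their summed level was 131 to 184 CPM in FXR-/- and 156 to 175 CPM in WT. Aif1, which lies among the H2 genes on chromosome 17, stood apart (log2 fold change 0.71, edgeR adjusted p = 0.0561). It had 1.92, 4.08, 4.38, 5.83 and 4.78 CPM in FXR-/- libraries 8 to 12, against 2.41 to 2.83 CPM in WT. The other macrophage markers ran from -0.28 (Cx3cr1) to 0.07 (C1qa) on the log2 scale. Library 8, highest in class II, was the lowest of all libraries in the summed macrophage markers. Mertk and Mrc1 were the largest parts of that sum, at 33.7 and 28.5 CPM in library 8. Library 8 lay below every WT library in most of these markers, and within the WT range in Cd68, C1qa and Fcgr1. Of 5 tested dendritic cell markers 0 were called, and all 5 had log2 fold changes below 0 (from -0.43 for Xcr1 to -0.01 for Clec9a, median -0.33). Their part in the class II values was not tested. They had sums of 79.6 to 96.9 CPM in FXR-/- and 83.1 to 111 CPM in WT, of which Zbtb46 alone made up 75.8 to 93.1 CPM in FXR-/- and 78.4 to 105.6 CPM in WT. The sum therefore follows Zbtb46 and does not gauge the other dendritic cell markers, and Cd209a did not pass the filter. The pan-leukocyte markers gave 0 calls of 4 (19.98 to 26.6 CPM in FXR-/- and 19.6 to 24.7 CPM in WT), with a median log2 fold change of 0.17. Of these, Ptprc was higher in every FXR-/- library, at 3.48 to 5.47 CPM against 2.62 to 3.46 CPM in WT. It fell short of a call (log2 fold change 0.46, edgeR adjusted p = 0.0521). Among 3 tested B cell markers Cd79a, a chain of the B cell receptor, was called lower at 0.381 ± 0.0994 CPM in FXR-/- and 0.672 ± 0.0834 CPM in WT (SD, n = 5 each; edgeR adjusted p = 0.0196), while Pax5 and Cd79b did not pass the filter. Of 6 tested T and NK cell markers 0 were called.

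**Figure D4:**
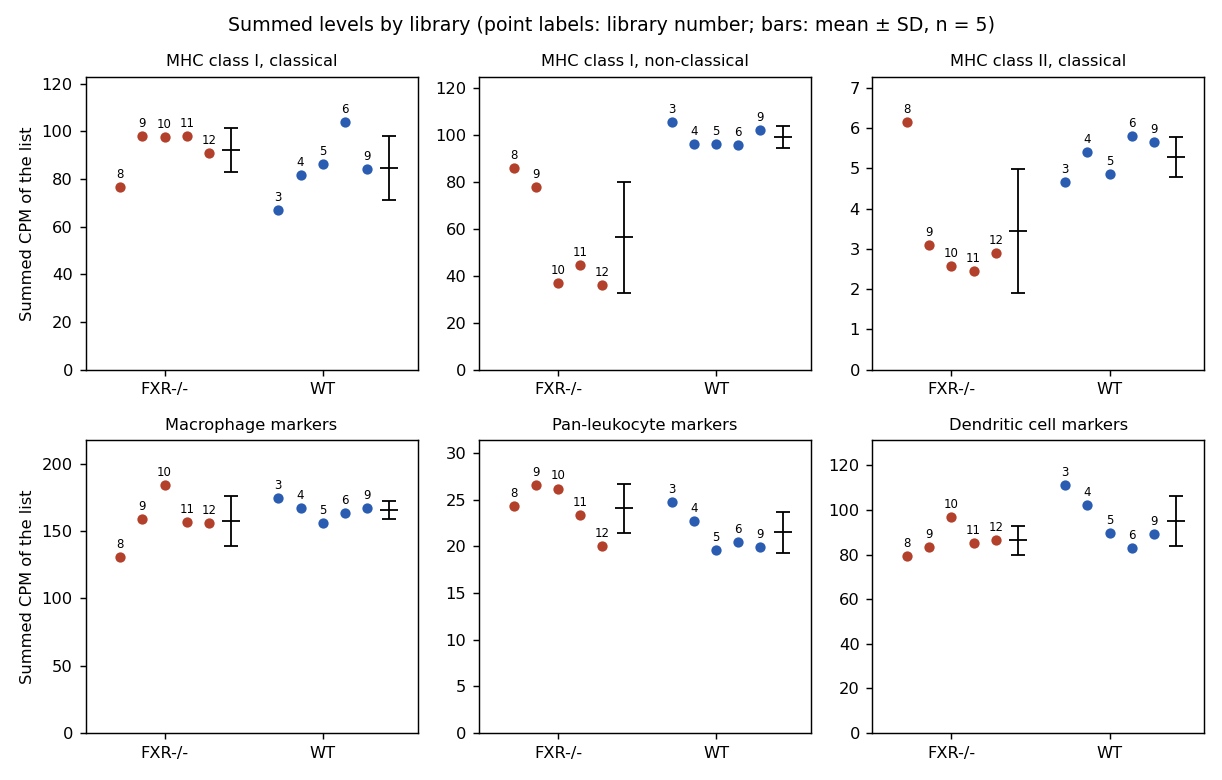
Summed CPM per library of 3 MHC classes (top) and of macrophage, pan-leukocyte and dendritic cell marker lists (bottom), FXR-/- on the left and WT on the right, with points labelled by library number and bars for the mean ± SD (n = 5). FXR-/- library 8 is the highest point for classical class II and the lowest for macrophage markers. The dendritic cell sum is mostly Zbtb46.

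Of the 6 non-classical class II genes, 3 were tested and 1 was called higher. H2-DMb1, a β chain of the peptide-loading H2-DM molecule, had 23, 20, 17, 28 and 25 counts in FXR-/- libraries 8 to 12, against 15, 7, 12, 11 and 10 counts in WT libraries. In CPM only library 10 reached the WT range, and library 8 was raised with the others (log2 fold change 0.86, SE 0.230, edgeR adjusted p = 0.0293). The call was lost when any of 6 single libraries was left out (FXR-/- 8, 11 or 12, WT 4, 6 or 9, with adjusted p up to 0.0740). Its neighbour H2-DMb2, which shares 21.2% of its 50-base words with H2-DMb1, averaged 0.652 ± 0.257 CPM in FXR-/- and 0.490 ± 0.163 CPM in WT (SD, n = 5 each; adjusted p = 0.406). H2-DMa, the α chain, averaged 1.71 ± 0.285 CPM in FXR-/- and 1.62 ± 0.264 CPM in WT (adjusted p = 0.800). H2-Oa and H2-Ob, chains of the H2-DO inhibitor of H2-DM, reached at most 5 and 8 counts in a library.

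Of the 5 partner genes only Tapbp was called. Tapbp (chr17:33915899-33929292), which encodes tapasin, had 127, 142, 136, 125 and 114 CPM in FXR-/- libraries 8 to 12, against 173, 169, 163, 155 and 180 CPM in WT libraries. All FXR-/- values lay below all WT values, with library 8 among them. Means were 129 ± 10.7 CPM in FXR-/- and 168 ± 9.59 CPM in WT (SD, n = 5 each), 1.30-fold lower (log2 fold change -0.38, SE 0.0607, edgeR adjusted p = 0.00261). B2m (chr2:122147686-122153083) had 62.4, 62.2, 79.8, 69.8 and 61.7 CPM in FXR-/- libraries 8 to 12, against 68.9, 77.6, 60.6, 79.6 and 68.5 CPM in WT libraries, and the groups overlapped. It averaged 67.2 ± 7.81 CPM in FXR-/- and 71.1 ± 7.68 CPM in WT (SD, n = 5 each), a log2 fold change of -0.08 with a 95% interval of -0.25 to 0.09. It was the most abundant member per kilobase, at 78.1 CPM in FXR-/- and 82.6 CPM in WT, with Tapbp next at 35.5 CPM in FXR-/- and 46.3 CPM in WT.

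The transporter gene Tap1 had 8.10, 6.47, 8.58, 6.61 and 5.55 CPM in FXR-/- libraries 8 to 12, against 7.53, 8.14, 6.74, 7.06 and 6.72 CPM in WT libraries. Its partner Tap2 had 6.78, 5.65, 6.61, 5.18 and 4.57 CPM in FXR-/- libraries 8 to 12, against 6.47, 6.27, 5.74, 5.15 and 5.81 CPM in WT libraries. Both overlapped between the genotypes. Their log2 fold changes were -0.04 and -0.03, both with a 95% interval of -0.27 to 0.20. Ciita (chr16:10480059-10528418) had 2.09, 1.55, 1.37, 1.69 and 1.31 CPM in FXR-/- libraries 8 to 12, against 1.90, 1.81, 1.35, 1.26 and 1.33 CPM in WT libraries, with a log2 fold change of 0.06 and a 95% interval of -0.28 to 0.40. H2-Ke6, outside antigen presentation, averaged 1.52 ± 0.465 CPM in FXR-/- and 1.85 ± 0.181 CPM in WT (SD, n = 5 each) and was not called (adjusted p = 0.333). Libraries 8 and 9 were at 2.03 and 2.01 CPM and libraries 10, 11 and 12 at 1.26, 1.12 and 1.16 CPM. Its value is uncertain, since 70.5% of its 50-base words occur in another gene model.

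Over 5 lists of other pathway genes, 6 of 28 tested genes were called (21.4%, against 13.9% of all tested genes), 2 higher and 4 lower. Of 6 genes for the immunoproteasome, its activator and peptide trimming (Psmb8, Psmb9, Psmb10, Psme1, Psme2 and Erap1) 0 were called by edgeR, with a median log2 fold change of 0.08. Psmb9, which lies beside Tap1, averaged 2.92 ± 0.538 CPM in FXR-/- and 2.13 ± 0.346 CPM in WT (SD, n = 5 each; adjusted p = 0.0707). Of 4 class I chaperones and editors, Calr (calreticulin) and Pdia3, both of the peptide-loading complex, fell (log2 fold changes -0.30 and -0.14, adjusted p = 0.0174 and 0.0449), the first not without FXR-/- library 11 and the second not without any of 8 single libraries. Of 9 regulators 1 was called. Rfxank, a subunit of the RFX complex at the X box, had 22.4, 22.8, 22.9, 21.6 and 23.2 CPM in FXR-/- libraries 8 to 12, against 16.5, 16.6, 17.2, 16.0 and 16.4 CPM in WT libraries. It rose evenly in all FXR-/- libraries (log2 fold change 0.45, SE 0.0478, adjusted p = 0.000161). Nlrc5, the class I transactivator, averaged 2.16 ± 0.573 CPM in FXR-/- and 1.995 ± 0.605 CPM in WT (SD, n = 5 each; adjusted p = 0.794).

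Of 4 class II processing genes, Ctss (the protease cathepsin S) rose, Ifi30 (a lysosomal thiol reductase) and Lgmn (the protease legumain) fell, and Cd74, the invariant chain, averaged 2.36 ± 0.556 CPM in FXR-/- and 2.09 ± 0.639 CPM in WT (SD, n = 5 each; edgeR adjusted p = 0.673). Their log2 fold changes were 0.31, -0.26 and -0.23 (adjusted p = 0.0331, 0.0168 and 0.0318), and Ctss and Lgmn lost the call when any of 6 single libraries was left out. Among 5 tested class I-like genes outside the H2 region 0 were called.

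The H2 rows lie in 1 stretch of chromosome 17 (chr17:33974659-37483552), which holds 115 other tested genes. Of these 20 were called (17.4%), against 151 of 736 (20.5%) on the rest of chromosome 17 and 13.9% of all tested genes, a share between those of the chromosome and of all genes. In libraries 8 to 12, 57.4%, 45.2%, 57.4%, 57.4% and 64.3% of these neighbours lay outside the WT range. The shares of all tested genes were 54.7%, 46.0%, 40.8%, 51.1% and 52.7%. Against these, the neighbours' share was higher in libraries 10, 11 and 12, a little higher in library 8 and a little lower in library 9. That interval was chosen after the members' values were seen.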

How the data were processed

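The table's raw counts, whole numbers of reads per gene deposited by the authors for each library, were the only values used. The deposited normalized columns had lost their decimal marks and were not used. Per the labels' protocols, Trizol was used on snap-frozen tissue before TruSeq library preparation. Per the submitters' processing notes, TopHat2 2.0.10, Bowtie2 2.1.0 and build mm10 were among the tools. The sources used here do not give the read counter, its annotation, its use of strand or its handling of reads that match several genes.

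Genes were filtered with filterByExpr (minimum count 10), scaled by TMM and tested with edgeR 4.0.16 in R 4.3.3 (quasi-likelihood F-test, two-sided, genotype as the only term, Benjamini-Hochberg adjustment over 18559 genes, called under 0.05). SE is the log2 fold change divided by the root of F, and 95% intervals are normal intervals from it, without adjustment. Alternatives were RLE, upper-quartile and no scaling, no filter, DESeq2 1.42.0, each library left out, and libraries 9 and 10 left out. Total counts were 32330029 to 39655170 per library. Positions are from GENCODE M21 (30212 genes matched), and promoters from RefSeq (GRCm38.p6), aligned with Biopython 1.88. Any tested member could be named, and of the other lists the called genes and defining markers. H2-T10, H2-Ea-ps, H2-Bl, Psmb9, Aif1, Mertk, Mrc1, Cd68, C1qa, Fcgr1 and Ptprc were named after their values were seen. Members and lists were chosen with earlier results of these data known. One of the context gene lists is not reported here.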

Additional observations from a re-analysis of the deposited data

Results flagged for a closer look

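Of 52 groups of 5 libraries examined (26 tested members in 2 genotypes), 1 held a library far from the others, and chance alone flags about 1 in 20 groups. In H2-Ab1, FXR-/- library 8 stood at 2.50 CPM, against 1.22 to 1.41 CPM in the other FXR-/- libraries, and the gap was 0.858 of the group's range, above the critical value of 0.71. No other member passed this limit in either genotype.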

How the results depend on the processing

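Over the 16 alternatives, H2-Q1, H2-Q2, H2-T24 and Tapbp kept their direction and their call in every one, H2-D1 and H2-M10.2 in 15, and H2-DMb1 in 10. Leaving out 1 library gave 3 to 5 members called higher, 2 to 7 called lower and 5 to 12 in either direction, with the highest counts (5, 7 and 12) without FXR-/- library 8 and the lowest total (5) without WT library 9. DESeq2 called 8 members (18.8% of all genes) and the fit without libraries 9 and 10 called 6 (13.1% of all genes). Uncalled members near 0 changed sign in some fits, and the cause was not tested. With library totals, H2-Q7 was at 0.0012 and Tap2 at 0.0034 on the log2 scale. Without libraries 9 and 10, H2-DMa was at -0.032, H2-M3 at -0.063 and H2-Q6 at -0.022. With 1 library left out, log2 fold changes ran from -0.049 to 0.15 for Ciita, from -0.0061 to 0.15 for H2-DMa, from -0.035 to 0.089 for H2-M3, from -0.034 to 0.14 for H2-Q6, from -0.17 to 0.053 for H2-Q7, from -0.12 to 0.040 for Tap1 and from -0.098 to 0.040 for Tap2. No paired analysis was possible because the genotypes share 1 library number, 9. Depth limits the 14 untested members most, none of which exceeded 19 counts in a library.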
